A study of Mus musculus with 8 samples.

Results

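Mir155 is the gene of miR-155, a microRNA (miRNA) known for its induction when lymphocytes are activated. It was taken from the count tables by its Ensembl identifier ENSMUSG00000065397.1, and it is 1 of 2202 miRNA genes (features) in those tables and 1 of 219 with enough counts to be tested. The study measured small RNA of mouse spleen B cells that were isolated by depleting CD43-bearing cells. The cells of all 8 libraries carried 2 copies of an Ago2 allele with an HA epitope (genotype Ago2HA/HA), so that an anti-HA antibody precipitates the Argonaute protein AGO2 with its bound miRNAs. Cells were resting or had been activated in culture (proliferating), and small RNA came either from the input or from the AGO2 immunoprecipitate (IP). This gives 4 groups of 2 libraries: resting input, resting IP, proliferating input and proliferating IP. The labels used here do not give the stimulus, its duration, the age of the animals or the animal behind each library. The edgeR p-values below therefore rest on the spread between 2 samples of a group, and part of it may be technical. That spread was pooled over the 4 groups and joined with the spread of the other tested features. An IP from cells without the epitope gave no RNA and no library, per the labels, and each IP is compared with input of the same state.

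miR-155 is cut from the non-coding transcript of its host gene, Mir155hg (also called Bic), whose transcription is known to follow antigen receptor and Toll-like receptor signals through AP-1 and NF-kappaB. In B cells it is known to restrain the transcription factor PU.1 (Spi1) and the phosphatase SHIP (Inpp5d). Like other miRNAs it acts when loaded in an Argonaute protein, and its seed, bases 2 to 8 from the 5′ end, finds the targets.

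Mir155 lies on chromosome 16, 84714140 to 84714204, plus strand (mm10), and its 65 nt begin at base 1118 of the 2223-base span of Mir155hg (84713023 to 84715245, RefSeq, GRCm38.p6). No other feature of the tables overlaps it on either strand. The hairpin is shown because the counts cover all of it, both arms together, with the 2 mature arms in capitals, and below it the mature arms with the seed in capitals (RefSeq, GRCm38.p6, 5′ to 3′):
Mir155 hairpin: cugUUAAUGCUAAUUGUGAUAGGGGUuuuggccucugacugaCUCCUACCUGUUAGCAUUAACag
miR-155-5p: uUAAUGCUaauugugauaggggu
miR-155-3p: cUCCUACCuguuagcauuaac
Among 1005 RefSeq hairpins only that of Mir155 held either mature arm, also when only the first 18 bases were searched. Among 1679 mature sequences no other shared the seed of either arm. Reads of miR-155 therefore had no identical copy in that table to be confused with, and no other miRNA listed there has its seed. The nearest features with enough counts to be tested were Mirlet7c-1 and Mir99a, 7114 and 7115 kb away, so that Mir155 belonged to no cluster of counted miRNAs. Neither was higher in proliferating cells. Mirlet7c-1 was at -0.60 in the input and -2.66 in the IP on the log2 scale (edgeR adjusted p = 0.678 and 0.0557), and Mir99a at -1.90 and -5.95 (edgeR adjusted p = 0.137 and 3.07e-05).

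The 8 libraries held from 213418 to 1681148 counts. Across the 219 features, log2 CPM (counts scaled to library size) correlated between the pair of libraries in each group with r from 0.960 to 0.981. miRNAs of other cell types were also counted. The myeloid marker Mir223 took 1.153% and 2.86% of the resting inputs (replicates 1 and 2) and 1.45% and 2.94% of the resting IPs. It took 0.221% and 0.339% of the proliferating inputs and 0.106% and 0.0695% of the proliferating IPs. Replicate 2 was thus the higher one except in the proliferating IPs. The erythroid list (2 of 3 markers matched) summed to at most 0.0259%, the 5 epithelial markers to at most 0.209%, the endothelial Mir126a, which was higher in the proliferating libraries, to at most 0.176%, the hepatocyte Mir122 to at most 0.00796% and the 6 stromal markers to at most 0.00809% of a library. The neural markers of the miR-124 family were at 0, and the neural list as a whole reached at most 0.000362%. Of the resting B lymphocyte markers Mir150 and Mir342 were abundant, while Mir142 was listed at 0 and overlaps Mir142b, with 49 counts, on the opposite strand. In bulk RNA, fewer cells of a type and less RNA per cell cannot be told apart.

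Mir155 held a small share of the counts in resting cells and a leading share in proliferating cells. The resting inputs held 4340 and 4161 Mir155 counts, 1.21% (95% exact interval 1.17 to 1.25) and 1.08% (1.04 to 1.11) of the libraries. The proliferating inputs held 42384 and 31622, 15.3% (15.2 to 15.5) and 14.8% (14.7 to 14.97). The intervals are Clopper-Pearson and cover counting error only. Both proliferating inputs stood far above both resting inputs, and the 4 possible ratios between them ran from 12.2 to 14.3 in share of counts. The AGO2 IP showed the same order. Resting IPs held 14048 and 8206 counts, 0.836% (0.822 to 0.849) and 1.04% (1.02 to 1.06), against 85796 and 170838 in the proliferating IPs, 10.8% (10.7 to 10.9) and 12.4% (12.36 to 12.5). The 4 ratios in the IP ran from 10.4 to 14.9, and again the states did not overlap. In none of the 4 groups did the counting intervals of the 2 libraries overlap, so that the libraries of a group differed by more than counting error, by a factor from 1.04 in the proliferating inputs to 1.24 in the resting IPs.

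**Figure D1:**
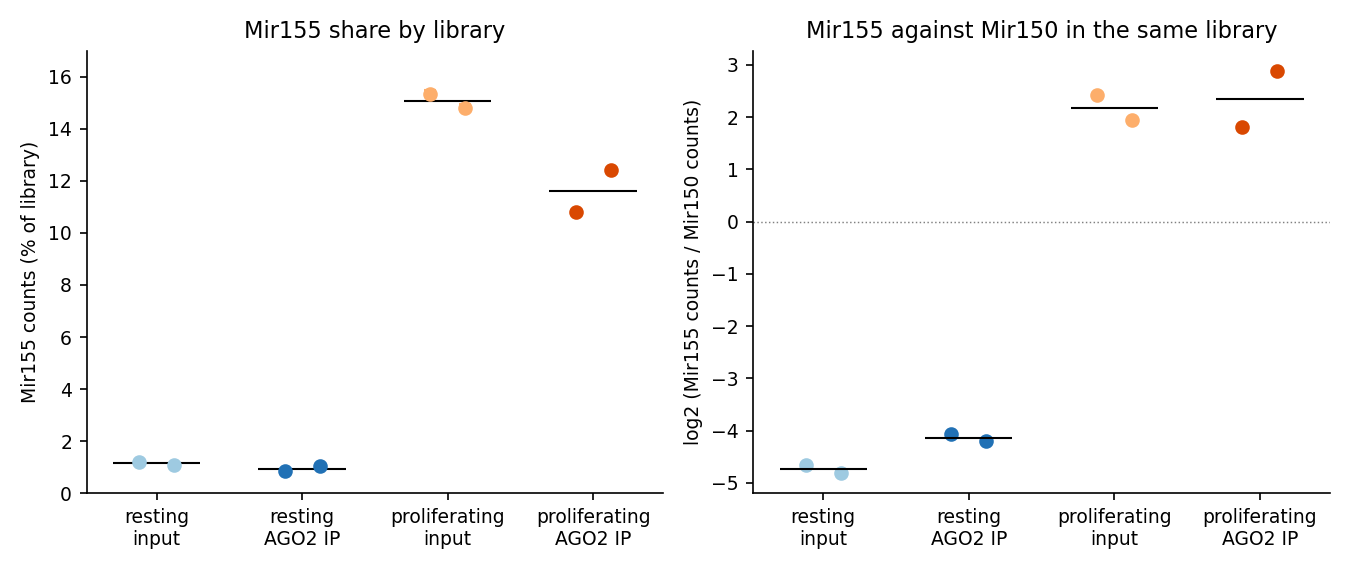
Left, Mir155 counts as percent of all counts in each of the 8 libraries (points, with exact 95% counting intervals smaller than most points) and the group mean (line). Right, log2 of Mir155 counts over Mir150 counts in the same libraries. Mir155 lay near 1% in the 4 resting libraries and between 10.8% and 15.3% in the proliferating libraries, and the log2 ratio was below 0 in all 4 resting and above 0 in all 4 proliferating libraries.

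Scaled to CPM with TMM factors (which correct library totals for differences in composition), Mir155 went from 11182 ± 1365 (mean ± SD, n = 2 here and below) in the resting to 115258 ± 6156 CPM in the proliferating input. The log2 fold change was 3.37 (SE 0.24, 95% interval 2.89 to 3.85), with the quasi-likelihood test of edgeR giving a Benjamini-Hochberg adjusted p = 4.94e-15 over the 219 features. This is a 10.3-fold difference. In the IP it went from 10733 ± 353 to 135168 ± 13694 CPM, a log2 fold change of 3.65 (SE 0.24, 95% interval 3.17 to 4.14, edgeR adjusted p = 5.36e-16), or 12.6-fold. Many miRNAs differed between the states. In the input 49.3% of the 219 features were called, 26.0% higher and 23.3% lower in proliferating cells, and in the IP 52.1% were called, 28.3% higher and 23.7% lower. Mir155 ranked 13 of 219 by log2 fold change in the input and 8 of 219 in the IP. The features ahead of it were far less abundant. The 12 with a larger log2 fold change in the input reached a group mean of at most 998 CPM (Mir183), and the 7 in the IP at most 2422 CPM (Mir182). Most of the 12 had low levels (median 37.1 CPM). A 2-sided exact permutation test of the log2 CPM of Mir155 over states, with labels exchanged within input and within IP, gave a mean difference of 3.51 and p = 0.0556, the smallest p that its 36 arrangements allow. The test treats input and IP libraries as independent samples, and no label says whether they share cells. If they did, fewer arrangements would exist and the smallest p would be larger. Several marker miRNAs of non-B cells differed between the states too. The myeloid Mir223 was, in input and IP, at -3.18 and -4.59 and the erythroid Mir144 at -3.42 and -5.58 on the log2 scale, and the endothelial Mir126a was higher by 1.41 and 3.74. Of the 5 epithelial markers 2 were lower in the input and 5 in the IP. The hepatocyte Mir122 was higher in the input by 2.54 (edgeR adjusted p = 0.0271), at 3 and 4 resting against 22 and 13 proliferating counts. In the IP Mir122 was at -1.86 (edgeR adjusted p = 0.0643). The stromal Mir10b was lower in the IP (log2 fold change -1.77, edgeR adjusted p = 0.0431). The part of other cell types in the Mir155 difference was not tested.

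**Figure D2:**
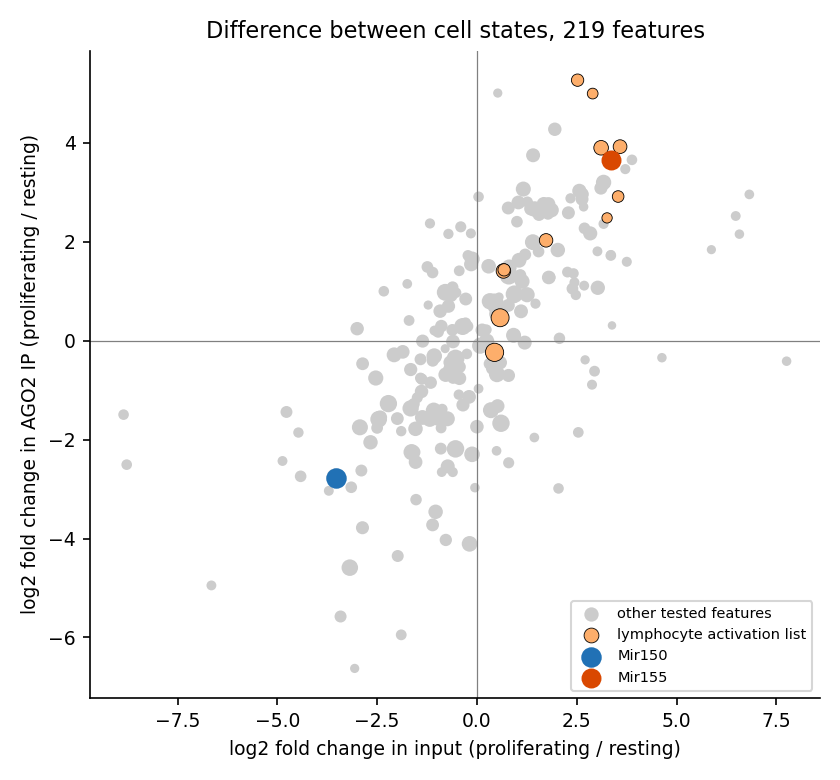
Log2 fold change of proliferating over resting cells in the input (x axis) and in the AGO2 IP (y axis) for the 219 tested features, with larger points for more abundant features. Mir155 (3.37 and 3.65) lies at the upper right among smaller points, and Mir150 (-3.54 and -2.77) at the lower left.

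By mean share of counts Mir155 ranked 18 in the resting input and 16 in the resting IP, and it was first in the proliferating input and second, rank 2, in the proliferating IP. Divided by feature length the ranks were 16, 15, 1 and 2. The resting libraries had 295 to 381 features with counts, so Mir155 was among the more abundant ones there too. In the resting input its neighbours by share were Mir15b at 1.30% ± 0.122 and Mir532 at 0.965% ± 0.0178, with Mir155 at 1.14% ± 0.0943. The higher Mir155 library and the lower Mir15b library (1.214%) differed by less than counting error, and both Mir155 libraries lay above both Mir532 libraries. In the resting IP its neighbours were Mir101a at 1.11% ± 0.170 and Mir28a at 0.928% ± 0.0253, whose libraries overlapped those of Mir155. In the proliferating input the next feature was Mir146, the gene of miR-146a, an NF-kappaB-induced miRNA that feeds back on that pathway. It took 13.9% and 13.2%, less than either Mir155 library. In the proliferating IP, Mir93 of the miR-17 family ranked first at 20.0% ± 1.90, above both Mir155 libraries, and Mir146 followed Mir155 at 10.4% and 11.0%. Rank 2 holds for the mean. In replicate 1 Mir155 (10.8%) ranked 3, below Mir21a (12.6%), which took 8.71% in replicate 2. Mir155 exceeded Mir146 within each proliferating library, of input and IP, but across libraries the IP ranges overlapped, with the higher Mir146 library above the lower Mir155 library. Both features are 65 nt long. All these ranks are of counts, which were not calibrated to numbers of molecules.

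Mir155 made up a large part of the change in composition. Summed over the 223 features whose mean share was higher in the proliferating input, the gain was 44.6 percentage points, of which Mir155 made 13.9, or 31.2%. This was the largest single gain, ahead of Mir93 with 6.76 and Mir146 with 5.74 points. In the IP the summed gain was 38.9 points over 287 features, Mir155 made 10.7 of them (27.4%), and only Mir93 gained more, 11.8 points. On the other side, the share of Mir150 fell by 27.1 points in the input, 60.8% of all share lost, and fell by 14.2 points, 36.4%, in the IP. The shares of a library have a fixed sum, so a loss by Mir150 raises the share of features that do not change. Mir146 gained share in the input but was not called between states there with TMM factors (log2 fold change 0.44, edgeR adjusted p = 0.0913).

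Mir150 (chromosome 7, 45121757 to 45121821) is the gene of miR-150, which is known to restrain Myb and to be high in resting lymphocytes. It is as long as Mir155, and the ratio of the 2 counts within a library needs no scaling factor. There were 0.0394 and 0.0356 Mir155 counts per Mir150 count in the resting inputs and 0.0594 and 0.0546 in the resting IPs. In the proliferating inputs there were 5.34 and 3.85, and in the proliferating IPs 3.51 and 7.38. Mir150 thus had more counts than Mir155 in each of the 4 resting libraries, and Mir155 had more in each of the 4 proliferating libraries. This is an order of counts, since counts of the 2 sequences were not calibrated to numbers of molecules. Between states the ratio rose by a factor from 97.9 to 149.8 over the 4 library pairs of the input and from 59.0 to 135 over those of the IP. The mean log2 difference over both fractions was 6.70 (2-sided exact permutation within fractions, p = 0.0556, the smallest possible if input and IP libraries are independent). The wider range in the IP came with the proliferating IPs, where Mir150 took 3.08% and 1.68%.

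The comparison of IP with input asks whether Mir155 was over- or under-represented with AGO2 relative to its abundance. In neither state did edgeR call it different from input. In resting cells the log2 fold change of IP over input was -0.06 (SE 0.22, 95% interval -0.50 to 0.38, edgeR adjusted p = 0.87). In proliferating cells it was 0.23 (SE 0.22, 95% interval -0.21 to 0.67, edgeR adjusted p = 0.482). Of all 219 features 28.8% were called in resting and 26.9% in proliferating cells. The change of this ratio between states was 0.29 (SE 0.31, 95% interval -0.33 to 0.91, edgeR adjusted p = 0.57), with 17.4% of features called, 9.59% with a higher and 7.76% with a lower ratio in proliferating cells. These p-values do not show that Mir155 was equally represented in both fractions, and the intervals allow a log2 difference down to -0.50 in resting and up to 0.67 in proliferating cells.

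The sign of the IP value of Mir155 followed the scaling, while its distance from the median of all features changed little. As shares of counts, all 4 IP over input ratios were below 1 in resting cells (0.691 to 0.966) and in proliferating cells (0.703 to 0.838). As CPM with TMM factors they ran from 0.863 to 1.07 in resting and from 1.05 to 1.31 in proliferating cells. With library totals the log2 fold change in proliferating cells was -0.38, but the median of all 219 features was then -0.50, against 0.11 with TMM factors. Relative to the median of all features, Mir155 stood at -0.01 in resting and 0.12 in proliferating cells with TMM factors. In the 10 other settings that left out no library of the comparison, it lay between 0.00 and 0.06 above that median in resting cells and between 0.07 and 0.14 above it in proliferating cells. Other scaling factors shift all features of a library together, so by construction they change this distance little. Leaving out single libraries moved these distances more, from -0.22 to 0.17 and from 0.05 to 0.45. By rank it was 111 of 219 from the top in resting and 98 of 219 in proliferating cells, near the middle of the list in both.

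**Figure D3:**
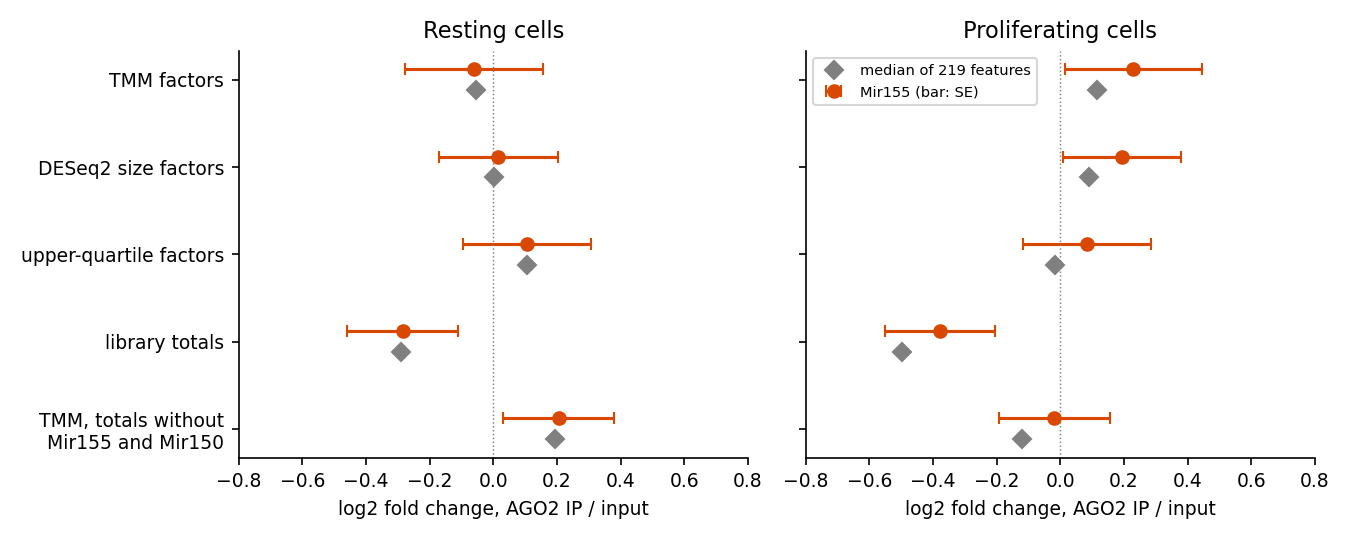
Log2 fold change of AGO2 IP over input for Mir155 (circles, bars are 1 SE) and the median of the 219 features (diamonds) under 5 ways of scaling, in resting (left) and proliferating cells (right). Mir155 moves with the median, from -0.29 to 0.21 in resting cells and from -0.38 to 0.23 in proliferating cells, and stays within 0.12 of it. Scaling shifts all features of a library together, so this distance changes little by construction.

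Of the other abundant activation miRNAs, Mir146 and Mir21a were higher in the IP than in the input of resting cells, in all 10 other settings and without each single library. Mir146 took 7.85% and 7.75% of the resting inputs and 14.2% and 10.9% of the resting IPs, a log2 fold change of 0.95 (SE 0.22, edgeR adjusted p = 7.15e-04). Mir21a, the gene of miR-21, which is known to favour lymphocyte survival, took 3.61% and 3.92% of the resting inputs and 7.32% and 8.39% of the resting IPs (log2 fold change 1.30, SE 0.22, edgeR adjusted p = 1.16e-05). In both cases the IP libraries lay above the input libraries. In proliferating cells Mir21a was higher in the IP by 1.18 (SE 0.22, edgeR adjusted p = 5.56e-05). This call was lost without proliferating input replicate 2 (adjusted p = 0.107) and kept without each other library. Mir146 was at 0.27 there (edgeR adjusted p = 0.418). The differences between these features and Mir155 were not tested.

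Mir155 belongs to a list of 12 lymphocyte activation miRNAs, all of which were tested. In the input 9 of the 12 were higher in proliferating cells and none was lower, against 26.0% of all features called higher and 23.3% lower, with a median log2 fold change of 2.71 beside 0.04 for all features. In the IP again 9 were higher and none lower (28.3% and 23.7% of all features), with a median of 2.69 beside 0.21. Without Mir155 itself 8 of 11 were higher in the input and 8 of 11 in the IP, with medians of 2.52 and 2.48. This list and those below were chosen with earlier results of these data known, so the counts and medians are a description only. Mir96, Mir212 and Mir146b passed the filter on low counts only through proliferating libraries, where they were high. For these members the filter itself favoured a higher call. Mir183, Mir96 and Mir182, 3 neighbouring genes of 1 cluster known to rise in activated lymphocytes, were higher by 3.59, 3.54 and 3.11 in the input and by 3.92, 2.91 and 3.90 in the IP. Mir222 was higher by 1.73 and 2.02, while its cluster partner Mir221 was at 0.66 in the input (edgeR adjusted p = 0.0764) and higher by 1.41 in the IP. Mir21a rose by 0.58 in the input (edgeR adjusted p = 0.0278), a call kept in only 2 of 8 fits without 1 library (those without resting IP replicate 2 or proliferating IP replicate 2), and was at 0.46 in the IP (edgeR adjusted p = 0.0722). Mir146b, at 64 counts in all, was higher by 3.26 in the input (edgeR adjusted p = 0.0254, lost in 5 of 8 fits without 1 library) and was at 2.48 in the IP (edgeR adjusted p = 0.134). Mir210, a hypoxia-induced miRNA gene, was at 0.68 in the input (edgeR adjusted p = 0.24) and higher by 1.43 in the IP (edgeR adjusted p = 0.019, lost without either resting input or proliferating input replicate 2). Mir146 was at 0.44 (edgeR adjusted p = 0.0913) and -0.24 (edgeR adjusted p = 0.351). In the IP Mir146 was called lower in 4 of 8 fits without 1 library (resting input replicate 1, resting IP replicate 2 or either proliferating input), with values from -0.66 to 0.01, and in the input it was called higher in 3 of 9 other settings, at 0.80 with library totals. Of the 12 members 11 were higher in the input with library totals, without Mir155 and Mir150 in the scaling or in a fit of the input libraries alone. With upper-quartile factors the calls were 7 higher in the input and 8 higher and 1 lower (Mir146) in the IP, and the sign of Mir21a in the IP turned.

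**Figure D4:**
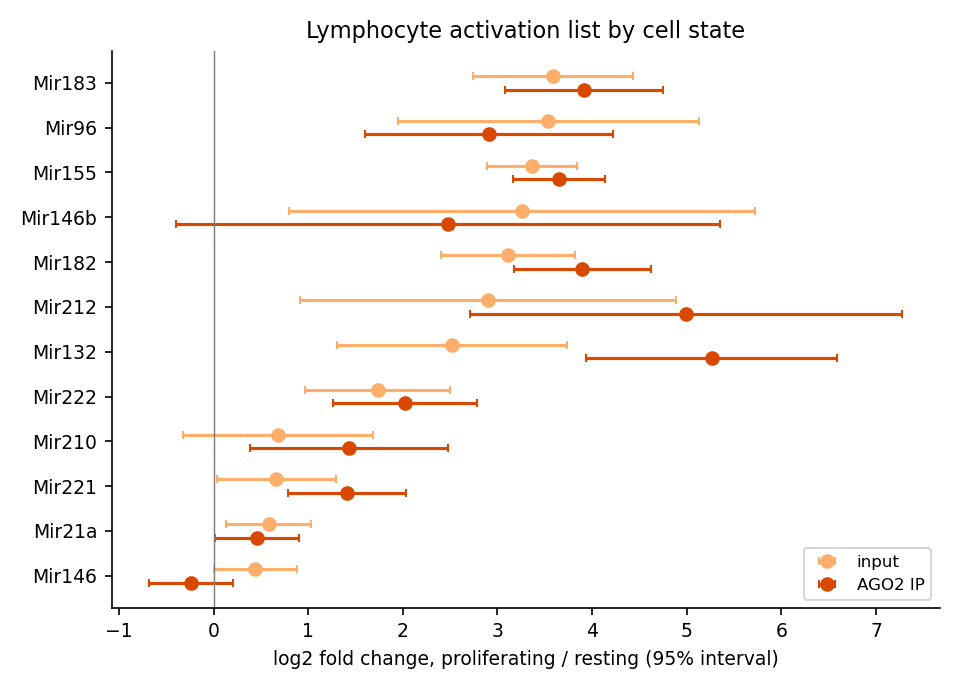
Log2 fold change of proliferating over resting cells with its 95% interval for the 12 activation miRNAs in the input (light) and the AGO2 IP (dark). Mir155 has narrow intervals (2.89 to 3.85 and 3.17 to 4.14), and Mir146 and Mir21a, the other abundant members, lie between -0.24 and 0.58.

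The weight of Mir155 within the list also differed between states. The list took 12.8% and 12.9% of the resting inputs, and Mir155 made 9.46% and 8.36% of its counts. In the proliferating inputs the list took 37.1% and 35.8%, and Mir155 made 41.35% and 41.36%. In the resting IPs Mir155 made 3.72% and 5.08% of the list and in the proliferating IPs 31.5% and 37.9%. The list was thus led by Mir146 and Mir21a in resting cells, and Mir155 was its largest member in both proliferating inputs. In the proliferating IPs Mir21a (12.6%) exceeded Mir155 in replicate 1, and Mir155 was the largest member in replicate 2.

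Mir132 and Mir212, neighbouring genes induced by CREB, had the largest differences of the list in the IP, at low counts. Mir132 counts went from 12 and 10 to 66 and 42 in the input and from 2 and 11 to 183 and 339 in the IP, so that the states did not overlap. It was higher in proliferating cells by 2.52 in the input (SE 0.60, edgeR adjusted p = 6.8e-04) and by 5.26 in the IP (SE 0.66, edgeR adjusted p = 8.18e-09). Mir212, with 1 to 6 counts in resting and 14 to 50 in proliferating libraries, was higher by 2.90 and 4.99, and its input call was lost in 4 of 8 fits without 1 library (resting input replicate 1, proliferating input replicate 2 or either proliferating IP). They are shown because their main arms share 1 seed (capitals), unlike miR-155 (RefSeq, GRCm38.p6):
miR-132-3p: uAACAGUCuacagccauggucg
miR-212-3p: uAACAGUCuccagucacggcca

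The NF-kappaB and AP-1 list had 6 tested members of 11, all 6 of them also in the activation list, and 4 were higher in proliferating input and 3 in proliferating IP, against 26.0% and 28.3% of all features. The medians were 1.20 and 1.72 beside 0.04 and 0.21 for all features. These values include Mir155 itself. Among the 5 other tested members 3 were higher in the input and 2 in the IP, with medians of 0.66 and 1.41. Mir146b, among those higher in the input, passed the filter only through the proliferating inputs. Of all 6, 2 were higher in the input with DESeq2 or upper-quartile factors. All 6 were higher there with library totals, without Mir155 and Mir150 in the scaling or in a fit of the input libraries alone. Mir9-1 was listed at 0, and Mir9-2, Mir9-3, Mir125b-1 and Mir125b-2 had too few counts to test. The opposite list, of resting lymphocyte miRNAs, had 8 of 11 tested members lower in proliferating cells and none higher, in the input and in the IP, against 23.3% and 23.7% of all features lower, with medians of -1.39 and -1.75 beside 0.04 and 0.21 for all features. For Mir150 the log2 fold changes were -3.54 and -2.77, and for Mir29a -2.22 and -1.27, the latter -0.62 without resting IP replicate 1. The 3 members called in neither fraction were Mir29b-1 at 0.24 and 0.22, Mir29b-2 at -1.90 and -1.83 and Mir30c-1 at -0.89 and 0.29. Over 9 other settings 6 to 9 members were lower in the input and 8 to 9 in the IP.

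The features whose profile was most like that of Mir155 were found by Pearson r of log2 CPM over the 8 libraries, among 210 tested features with a mean of at least 10 CPM. They were Mir18 (r = 0.996), Mir182 (0.991), Mir18b (0.983), Mir34a (0.983), Mir298 (0.979) and Mir7b (0.976). The libraries fall into 2 states for all of them, so that r mostly reflects the size of the state difference against the spread within states, and 29 features had r above 0.9 while the median was 0.05. By Euclidean distance of centred log2 CPM the 6 nearest were Mir182, Mir34a, Mir18b, Mir18, Mir183 and Mir298. Mir182 was nearest. Its share of the input went from 0.0251% and 0.0197% in resting to 0.258% and 0.237% in proliferating cells, and its share of the IP from 0.0143% and 0.0137% to 0.150% and 0.266%. Mir34a, the gene of a p53-induced miRNA, went from 0.0658% and 0.0647% to 0.814% and 0.687% of the input and from 0.0354% and 0.0454% to 0.297% and 0.429% of the IP. In both, the proliferating libraries lay above all resting libraries, at levels far below those of Mir155. Between states the 7 like features differed by 2.29 (Mir7b) to 3.59 (Mir183) in the input and by 2.58 to 3.92 in the IP on the log2 scale, a description only, since r and distance rest on the same values. Mir18 and Mir18b are near-identical copies, so their split is uncertain. The lowest r were those of Mir16-1 (-0.989), which shares its mature sequence with another locus, Mir139 (-0.986) and Mir150 (-0.978).

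**Figure D5:**
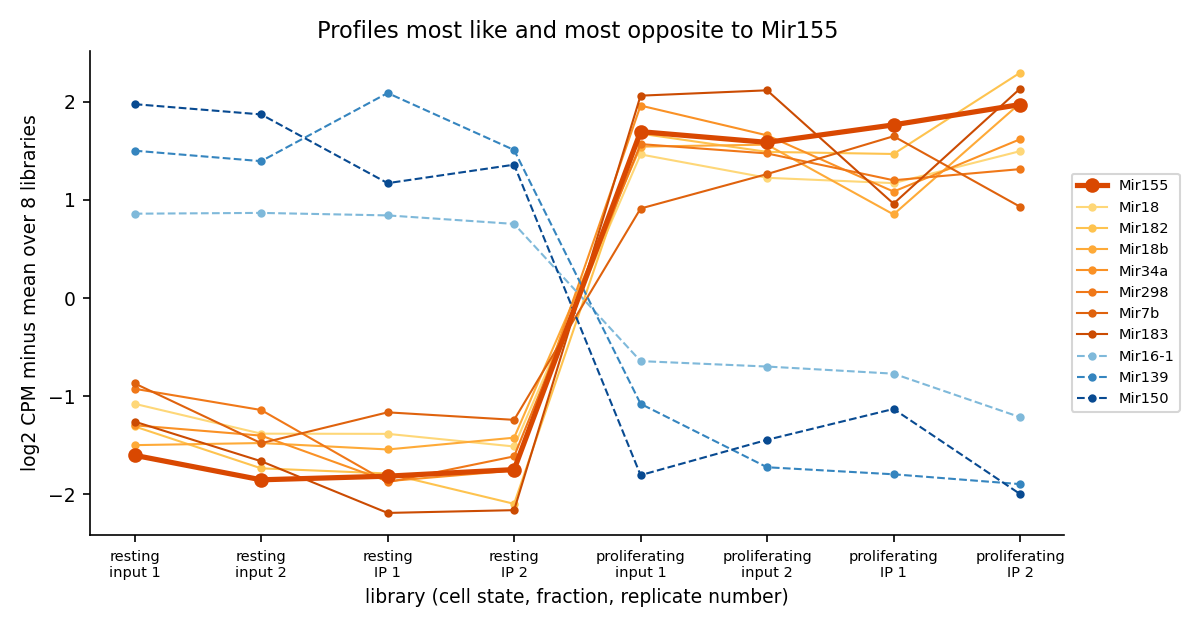
Log2 CPM minus the mean over the 8 libraries (y axis) in each library (x axis) for Mir155 (thick line), the 7 features most like it by r or distance (thin lines) and the 3 with the lowest r (dashed). The like features are below 0 in the 4 resting and above 0 in the 4 proliferating libraries.

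The 7 like features lie on chromosomes 2, 4, 6, 14, 17 and X, none on that of Mir155. Their seeds (capitals) are shown because only Mir18 and Mir18b have a common one, and none has that of miR-155. The 5p arms are shown, while the counts cover both arms (RefSeq, GRCm38.p6):
miR-18a-5p: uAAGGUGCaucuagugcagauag
miR-18b-5p: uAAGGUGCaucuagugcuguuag
miR-182-5p: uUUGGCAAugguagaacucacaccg
miR-183-5p: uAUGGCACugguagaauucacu
miR-34a-5p: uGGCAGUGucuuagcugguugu
miR-298-5p: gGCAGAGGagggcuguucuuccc
miR-7b-5p: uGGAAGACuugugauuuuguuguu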

How the data were processed

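Small RNA libraries (QIAseq miRNA kit, single-end, per the labels' protocols) were processed with STAR 2.7.9a and SAMtools 1.15 on genome build mm10, per the submitters' processing notes. The authors deposited raw counts per miRNA gene, and the columns are named for deduplicated alignments, per the file headers. For the counter, its strand setting and the deduplication method, nothing is given in the sources used here. The 2 tables, of resting and of proliferating cells, hold the same 2202 features, so table and cell state coincide. Features were named by exact coordinates in RefSeq (1179 named). CPM used TMM factors from 0.797 to 1.34. At these library totals 3 counts, the limit that a count of 0 allows, equal 1.78 to 14.1 CPM. edgeR 4.0.16 (R 4.3.3) fitted the 4 groups in all 8 libraries by quasi-likelihood, after filterByExpr with a minimum count of 10 (219 features, 4 residual and 36.6 prior degrees of freedom), with 2-sided tests and Benjamini-Hochberg adjustment over the 219 features and a threshold of 0.05. The SE is the absolute log2 fold change over the square root of F. On simulated counts of 219 features the fit recovered 76.0% of 50 features changed 4-fold between states in the input and 40.0% of those changed 2-fold.

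The member and the lists were chosen with earlier results of these data known. Named features are Mir155, the 6 highest in r, the 6 nearest and the 3 lowest in r, Mir150, rank neighbours, up to 5 examples of each list, seed sharers and chromosome neighbours. Other activation list members, and the resting list members that were not called, were named after their values were seen. Alternatives were other scaling factors, no filter, DESeq2 1.42.0, limma-voom 3.58.1, fits of 2 groups, a replicate block and leaving out each library. 1 list is not reported here. No label says that replicate numbers pair libraries, and they were not used as a block in the reported fit.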

Additional observations from a re-analysis of the deposited data

Results flagged for a closer look

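The ratio of IP to input differed between states for Mir132, which was named with Mir155 as an activation miRNA. The change was 2.74 on the log2 scale (SE 0.87, edgeR adjusted p = 0.0228), with 17.4% of the 219 features called. It rests on 2 and 11 counts in the resting IPs. The call was lost in 5 of 9 other settings, among them DESeq2 size factors (2.60, adjusted p = 0.105), and in 6 of 8 fits that left out a library, where the value ranged from 1.82 to 5.13.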

How the results depend on the processing

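The difference of Mir155 between states kept its direction and its call in all 9 other settings and without each single library. The log2 fold change ran from 3.01 to 3.72 in the input and from 2.99 to 3.66 in the IP, and from 3.14 to 3.56 and from 3.20 to 3.78 without 1 library. In the input the edgeR adjusted p ran from 1.53e-52 with no filter to 1.15e-07 with DESeq2 size factors, so its size depended on the fit. The IP against input values of Mir155, called in no setting, changed sign. In resting cells the value was 0.0158 both with DESeq2 size factors and with the DESeq2 test, 0.11 with upper-quartile factors, 0.21 without Mir155 and Mir150 in the scaling and 0.0644 with no filter, and from -0.34 to 0.28 without 1 library. In proliferating cells it was -0.38 with library totals and -0.0191 without Mir155 and Mir150 in the scaling, and from -0.17 to 0.39 without 1 library. The change between states was -0.0222 with upper-quartile factors, -0.0927 with library totals and -0.22 without Mir155 and Mir150 in the scaling, and from -0.35 to 0.62 without 1 library. By construction, other scaling factors shift all features of a library together, and the median of all features moved from -0.05 to -0.29 in resting and from 0.11 to -0.50 in proliferating cells with library totals.

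For the change between states 25 features were called with DESeq2 size factors and 22 with upper-quartile factors, against 38, and 11 to 46 without 1 library. For IP against input in proliferating cells 30 to 63 were called without 1 library, against 59. The split into higher and lower calls followed the scaling. Between states in the input it was 57 and 51, but 75 and 37 with library totals and 39 and 59 with upper-quartile factors. In the IP it was 62 and 52, but 38 and 75 with upper-quartile factors and 46 and 71 without Mir155 and Mir150 in the scaling. For IP against input in resting cells it was 29 and 34, but 33 and 23 with upper-quartile factors and 34 and 20 without that pair, and in proliferating cells 29 and 30, but 16 and 60 with library totals and 21 and 34 without that pair. For the change it was 21 and 17, but 7 and 20 with library totals, 7 and 15 with upper-quartile factors and 5 and 22 without that pair.

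Among named features, Mir21a in the IP between states was -0.17 with upper-quartile factors and -0.0042 without Mir155 and Mir150 in the scaling, Mir146 in IP against input of proliferating cells was -0.34 with library totals, and Mir150 there was -0.50 with library totals and -0.11 without that pair. Without features that overlap snoRNA, scaRNA or tRNA genes the share of Mir155 in proliferating input was 15.6%. With the replicate number as a block, Mir155 was at 3.37 and 3.65 between states and -0.06 and 0.23 for IP against input, with no call of Mir155 changed. Deviations of same-numbered libraries correlated at 0.177 between the inputs of both states, at -0.0889 between the IPs, at -0.0477 and -0.0832 between input and IP of resting and proliferating cells; no label ties the numbers to a shared source, and 2 numbers do not settle a pairing. At low counts, as for Mir212 and Mir146b, depth limits what could be called.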
